A study of Saccharomyces cerevisiae with 12 samples.

Results

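The comparison described here is of YSBN2, a laboratory strain of the budding yeast Saccharomyces cerevisiae, grown in glucose-limited chemostat or in batch. Its members are the 6 arrays, of 12 in the series, whose titles name YSBN2, 3 titled chemostat and 3 titled batch. The labels give YSBN2 as a prototrophic FY strain of genotype ho::Ble/ho::HphMX4, in which HO, the endonuclease that switches mating type, is disrupted by resistance markers. The genotype lists an ho::Ble and an ho::HphMX4 allele side by side, so more than a single copy of the locus is written. No label states ploidy or mating type in words. All cultures were aerobic, in a 4 L reactor at 30 °C and pH 5.0. The batch cultures began with 30 g/L glucose. The chemostats ran at a dilution rate of 0.1 per h on medium with 7.5 g/L glucose and 0.3 g/L ethanol, so glucose level, ethanol feed and growth rate differ together between the groups and cannot be told apart. The other 6 arrays, 3 per culture, are of CEN.PK 113-7D, labelled prototrophic and Mat a, and serve only to ask whether a YSBN2 difference differed in size between strains. Each array is labelled as a separate biological replicate. No label says whether those replicates shared an inoculum.

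Yeast with plentiful glucose ferments it to ethanol and represses the genes for respiration and for other carbon sources. The repression runs through hexokinase 2, the repressor Mig1 and inactivity of the kinase Snf1, while the membrane sensors Snf3 and Rgt2 set which hexose transporters are made. When glucose is scarce, as in a glucose-limited chemostat, Snf1 is active, high-affinity transporters replace low-affinity ones, and the cell respires.

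Each array gave a log2 signal for 5716 probe sets, of which 5498 carried 1 gene name and 218 none. Array medians of the 6 YSBN2 arrays lay between 11.07 and 11.37. The 10th percentile of the signals was 4.98, 4.765 and 5.16 in batch replicates 1 to 3. In chemostat replicates 1 to 3 it was 5.96, 7.34 and 6.72. The dim end of the scale thus read higher in every chemostat array. Whether rises of single dim probe sets go beyond this shift was not tested. Signals near 2 are the lowest these arrays give, and between 6.37% and 8.82% of probe sets per array read under 4. A difference against such a value depends on the floor and is not a measured fold, and a probe set's level is not comparable with another's. Precision is limited by the number of arrays, 3 per group. HO itself read 2.39, 2.39 and 2.30 in batch replicates 1 to 3 and 2.38, 2.11 and 2.11 in chemostat replicates 1 to 3. It was at the floor in all 6 arrays. In all sentences that follow, the values of a group are given in the order of replicates 1, 2 and 3, and differences are chemostat minus batch on the log2 scale.

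Batch replicate 3 stood apart. In it, 196 probe sets deviated by 2 log2 units or more from the average of the other 2 batch arrays, 178 above and 18 below, where the same count was 38 for batch replicate 1, 59 for batch replicate 2, and 34, 45 and 8 for the chemostat replicates. The lowest correlation between YSBN2 batch arrays over all probe sets was 0.961, and between chemostat arrays it was 0.991. Results that rest on this array are given with and without it. The source of its deviation was not tested.

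By limma, with Benjamini-Hochberg adjustment over all probe sets and an adjusted p under 0.05 as the threshold, 3004 probe sets differed, which is 52.6%. Of these, 1750 (30.6%) were higher and 1254 (21.9%) were lower in the chemostat, and the median difference over all probe sets was 0.065. These percentages are the background for every count of a gene list given below. Differences of at least 2-fold among the called probe sets numbered 940 (16.4%) upward and 520 (9.10%) downward. The 3 arrays of a group did not overlap with those of the other at 1904 probe sets (33.3%) with the chemostat higher and 1455 (25.5%) with it lower. Without batch replicate 3 the counts of calls were 1823 (31.9%) higher and 1293 (22.6%) lower, with a median of 0.074. Of the calls, 2738 were made both with and without that array, all in the same direction. The zero point matters for small differences: giving all arrays a common median shifted the median difference by -0.133, quantile normalization by -0.109 and loess by -0.061. The share of calls that were higher was 58.3% as deposited, and 48.5%, 44.7% and 52.9% under those 3 scalings. The medians of gene lists given below move with the zero point too. Because RNA was taken from whole cultures, fewer cells of a kind and less RNA per cell cannot be told apart.

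**Figure D1:**
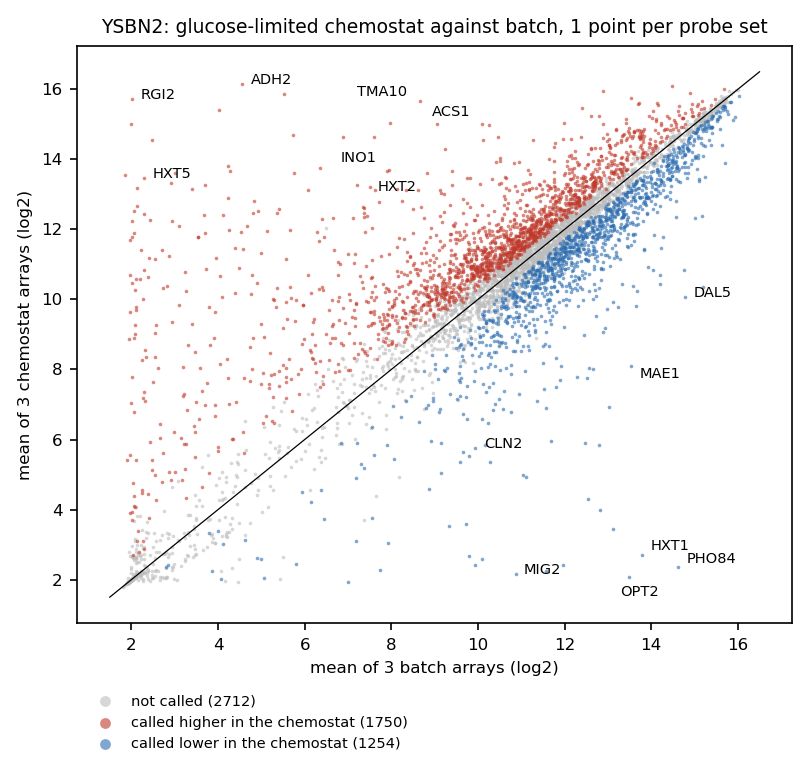
Mean log2 signal of the 3 YSBN2 batch arrays (x axis) against the mean of the 3 chemostat arrays (y axis), 1 point per probe set. Red points are the 1750 called higher in the chemostat, blue the 1254 called lower and grey the 2712 not called. RGI2 and ADH2 lie at the upper left, PHO84, OPT2 and HXT1 at the lower right, and many of the most extreme points have 1 group near the floor of about 2.

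Among the hexose carriers, HXT5 and the high-affinity transporter HXT7 were higher in the chemostat, and the low-affinity transporters HXT1 and HXT3 were lower. HXT5, a hexose transporter known from slowly growing cells, read 2.24, 2.24 and 2.41 in batch against 13.43, 13.55 and 13.44 in the chemostat, a difference of 11.18 ± 0.08 (SE, n = 3 and 3, limma adjusted p = 9.48e-14). HXT7, whose probe set may also read its near-identical neighbour HXT6, read 11.78, 12.07 and 13.97 against 15.38, 15.13 and 15.18. It was higher by 2.62 ± 0.46 (adjusted p = 0.00103), and by 3.30 without batch replicate 3. The groups did not overlap for either gene.

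HXT1, the low-affinity carrier of cells in high glucose, fell from 13.46, 13.17 and 14.73 to 2.81, 2.67 and 2.67, at the floor in every chemostat array. HXT3, also of low affinity, read 14.96, 15.11 and 15.53 in batch against 11.15, 10.36 and 9.59 in the chemostat, so it fell by 4.83 ± 0.35 (limma adjusted p = 3.37e-06) while staying well above the floor. Over the 19 transporters and glucose sensors measured, 5 were higher and 3 lower, with a median difference of -0.004. The count higher was 6 without batch replicate 3 and 3 without batch replicate 1, batch replicate 2, chemostat replicate 1 or chemostat replicate 2. HXT8, HXT10, HXT13, HXT17 and GAL2 read between 1.93 and 2.03 in all 6 arrays.

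SNF3, the sensor of low glucose, was higher in the chemostat, at 8.98, 8.38 and 9.74 in batch against 11.55, 11.89 and 12.08 in the chemostat (difference 2.81 ± 0.47). The high-glucose sensor RGT2 and the repressor RGT1, which acts on the transporter genes, differed by -0.15 and -0.05 and were not called. The Rgt1 partners MTH1 and STD1 went in opposite directions. STD1 read 11.78, 11.76 and 12.57 in batch against 10.09, 10.32 and 9.66 in the chemostat, and fell by 2.01 ± 0.23 (limma adjusted p = 6.36e-05) with no overlap.

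MTH1, HXT2 and HXT4 depended on batch replicate 3. MTH1 read 6.58, 6.81 and 11.67 in batch against 11.13, 11.46 and 11.45 in the chemostat, so batch replicate 3 lay above every chemostat array. Its difference was 3.00 ± 1.09 (limma adjusted p = 0.0433) with that array and 4.66 (adjusted p = 4.26e-08) without it. HXT2, another high-affinity transporter, read 4.26, 4.21 and 14.04 in batch against 13.24, 13.24 and 13.16 in the chemostat, giving 5.71 ± 2.14 (adjusted p = 0.0475) with the array and 8.98 (adjusted p = 4.87e-11) without. Both calls were lost when any other single YSBN2 array was left out, with adjusted p up to 0.145 for MTH1 and 0.157 for HXT2, and the MTH1 call was also lost with loess (2.57, adjusted p = 0.0607). HXT4 read 9.10, 9.64 and 13.91 against 10.33, 10.66 and 9.52. Its difference of -0.71 (adjusted p = 0.591) became 0.80 (adjusted p = 0.0484) when the array was left out, so the sign of HXT4 depended on it.

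**Figure D2:**
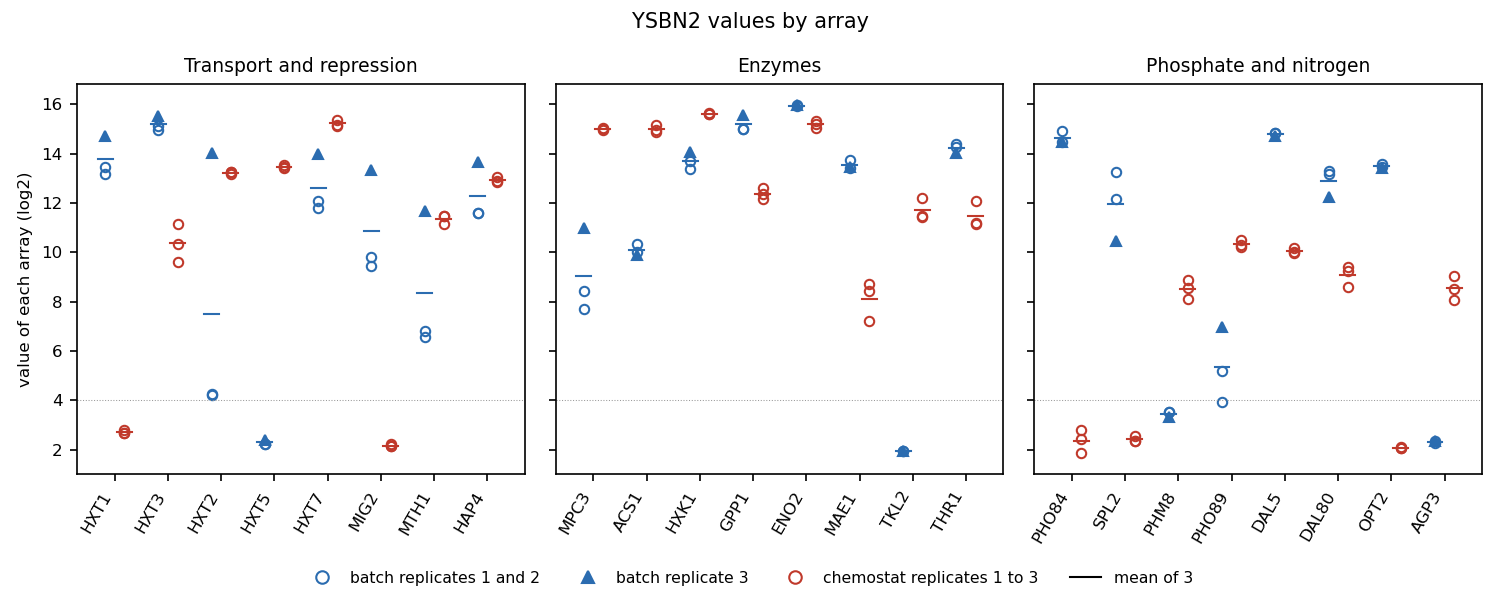
Log2 signal of every YSBN2 array for 24 genes, 8 in each panel: hexose transport and its regulators, carbon and amino acid enzymes, and phosphate and nitrogen genes. Blue open circles are batch replicates 1 and 2, the filled triangle is batch replicate 3, red circles are the chemostat arrays, bars are group means, and the dotted line at 4 marks the range near the floor. In HXT2, MTH1 and HAP4 the triangle sits with or above the red points, whereas in HXT1, HXT3 and PHO84 all 3 batch arrays lie above the chemostat arrays.

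Of 18 genes listed for the glucose repression pathway, 7 were higher and 4 lower, with a median of 0.341. The activators of ethanol, acetate and gluconeogenic genes were low in batch. ADR1, which activates ADH2 and peroxisomal genes, read 4.25, 3.66 and 4.86 against 11.92, 12.16 and 11.83, a difference of 7.71 ± 0.30 (limma adjusted p = 4.85e-08). CAT8, the activator of gluconeogenic genes, read 6.82, 6.29 and 6.88 against 12.20, 12.06 and 12.72, higher by 5.67 ± 0.31 (adjusted p = 5.61e-07). SIP4, which binds the same promoter elements as Cat8, was at 2.02, 2.03 and 2.17 in batch against 9.94, 10.71 and 10.15 in the chemostat. RDS2, another activator of these genes, was higher by 1.48.

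The repressors split. MIG2 and MIG3, zinc-finger repressors related to Mig1, fell to the floor: MIG2 read 9.82, 9.46 and 13.34 against 2.13, 2.13 and 2.24, and MIG3 9.60, 9.29 and 10.47 against 2.48, 2.48 and 3.06. MIG1 itself read 11.17, 11.26 and 12.92 against 11.13, 11.46 and 11.57 and was not called, either with batch replicate 3 (difference -0.40, limma adjusted p = 0.487) or without it (0.17, adjusted p = 0.665). NRG1 and NRG2, a different pair of repressors controlled by glucose, rose by 5.22 ± 0.71 and 2.82 ± 0.14. NRG1 read 8.09, 8.79 and 5.26 in batch against 12.54, 12.78 and 12.47 in the chemostat. Without batch replicate 3 its difference was 4.16. HXK2, the hexokinase that takes part in repression, was slightly lower, at 14.94, 14.99 and 15.05 against 14.53, 14.54 and 14.66. The kinase genes SNF1 and SNF4 differed by -0.14 and 0.05 and were not called, while GAL83, a subunit that directs the kinase within the cell, fell by 1.32 ± 0.20 (adjusted p = 0.000365).

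HAP4, the limiting subunit of the activator of respiratory genes, read 11.57, 11.58 and 13.65 in batch against 12.89, 13.04 and 12.86 in the chemostat. With batch replicate 3 its difference of 0.66 ± 0.46 was not called (limma adjusted p = 0.262), and without that array it was 1.35 (adjusted p = 1.26e-05). Genes of respiratory complexes III to V and cytochrome c, in contrast, gave the same counts either way: 30 of 32 were higher and 1 was lower, COX5B, the cytochrome c oxidase subunit of low oxygen, which fell by 1.80.

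Glycolytic genes were lower in the chemostat by small amounts. Of 16 measured, 9 were lower and 2 higher, with a median of -0.206, which stayed below 0 under all 3 other scalings. ENO2, the enolase of fermenting cells, read 15.95, 15.93 and 15.95 against 15.05, 15.20 and 15.34, and fell by 0.75 ± 0.08 (limma adjusted p = 6.3e-05). The phosphofructokinase subunits PFK1 and PFK2 fell by 0.57 ± 0.07 and 0.72 ± 0.07, and the pyruvate kinase CDC19 by 0.37. FBA1, PGI1, TPI1 and TDH3, all enzymes of the same pathway, were not called. The members called higher were the sugar kinases HXK1 and GLK1. HXK1 read 13.38, 13.70 and 14.08 against 15.60, 15.60 and 15.64, with a difference of 1.90 ± 0.69 (adjusted p = 0.0435) that was 2.07 without batch replicate 3 (adjusted p = 0.0565). The HXK1 groups did not overlap, but leaving out any single YSBN2 array ended its call, with adjusted p from 0.0565 to 0.11. GLK1 likewise went from 0.81 (adjusted p = 0.0226) to 0.76 (adjusted p = 0.055), and it was also lost without batch replicate 1 (adjusted p = 0.0561) or chemostat replicate 3 (adjusted p = 0.0779). Without batch replicate 3 no glycolytic gene was called higher and 8 were called lower. A fit of the 6 YSBN2 arrays alone called 2 glycolytic genes higher and 7 lower.

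The steps from pyruvate to ethanol were lower in 5 of 8 genes and higher in none, with a median of -0.447. ADH1, the alcohol dehydrogenase of fermentation, read 15.87, 15.93 and 15.88 in batch against 15.07, 15.02 and 15.27 in the chemostat, and fell by 0.77 ± 0.07 (limma adjusted p = 2e-05). The pyruvate decarboxylases PDC1 and PDC5 fell by 0.49 and 0.91. Signals this close to the top of the array's range leave little room, and whether these probe sets are near saturation was not tested.

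Enzymes for using ethanol and acetate, with those of the glyoxylate cycle and gluconeogenesis, were higher in 17 of 23 genes and lower in 2, with a median of 4.751. Off the floor, ACS1, an acetyl-CoA synthetase subject to glucose repression, read 10.02, 10.33 and 9.91 against 14.96, 15.17 and 14.89, a difference of 4.92 ± 0.21 (limma adjusted p = 1e-07). Its counterpart ACS2, the acetyl-CoA synthetase used on glucose, fell by 0.70 ± 0.07 (adjusted p = 1.86e-05). IDP2, the cytosolic NADP-dependent isocitrate dehydrogenase, read 7.64, 6.73 and 6.30 against 14.70, 14.64 and 14.61, and ALD4, the mitochondrial aldehyde dehydrogenase, was higher by 2.22 ± 0.14. The genes lower in the list were ACS2 and ALD5, another mitochondrial aldehyde dehydrogenase. MLS1, the malate synthase of the glyoxylate cycle, read 8.40, 8.16 and 7.82 against 8.71, 9.11 and 9.62 and was not called (1.02, adjusted p = 0.204). Its groups did not overlap. It was called higher in a fit of the 6 YSBN2 arrays alone (adjusted p = 0.0353), though not there without batch replicate 3 (adjusted p = 0.0778). With values under 6 raised to 6 it was also called (adjusted p = 0.00466).

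Pyruvate entry into mitochondria changed by subunit. MPC3, the mitochondrial pyruvate carrier subunit of respiring cells, read 7.72, 8.45 and 10.98 in batch against 14.96, 15.05 and 14.99 in the chemostat, higher by 5.95 ± 0.65 (limma adjusted p = 5.45e-05) and by 6.92 without batch replicate 3. MPC2, the alternative subunit used in fermentation, fell by 0.54 ± 0.09 (adjusted p = 0.000861), and the shared subunit MPC1 rose by 1.49 ± 0.24. Of 22 mitochondrial import and folding genes, 11 were lower and 1 higher, with a median of -0.434. Among these the presequence peptidase subunit MAS2 fell by 1.99 and the inner membrane channel TIM23 by 1.48.

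In the pentose phosphate pathway, 7 of 13 genes were higher and 4 lower (median 0.270; 4 were higher without chemostat replicate 2), and paired isoenzymes moved apart. TKL2, the minor transketolase, was at the floor in batch (1.96 in each array) and read 11.43, 11.47 and 12.21 in the chemostat. TKL1, the main transketolase, read 15.09, 15.06 and 15.10 in batch against 14.04, 14.17 and 14.20 in the chemostat, and fell by 0.94 ± 0.06 (limma adjusted p = 1.43e-06). GND2, the minor 6-phosphogluconate dehydrogenase, went from 3.74, 3.61 and 3.71 to 12.38, 12.27 and 12.55, whereas the major form GND1 differed by -0.07 (adjusted p = 0.514). NQM1, a transaldolase of unsettled function, read 2.93, 3.62 and 6.27 against 13.52, 13.60 and 13.90, and its relative TAL1 differed by 0.03 (adjusted p = 0.765). ZWF1, which commits glucose 6-phosphate to the pathway, fell by 1.07 ± 0.22.

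Glycerol synthesis and glycerol use also moved apart. GPP1, the glycerol 3-phosphatase that completes glycerol synthesis, read 14.98, 15.02 and 15.55 in batch against 12.36, 12.15 and 12.62 in the chemostat, and fell by 2.80 ± 0.20 (limma adjusted p = 2.78e-06). GPD2, the glycerol 3-phosphate dehydrogenase used for redox balance, fell by 1.29, while GPD1 differed by -0.07 and was not called. STL1, the glycerol-proton symporter, rose from 2.20, 2.20 and 2.19 to 10.46, 10.74 and 10.55. The catabolic glycerol kinase GUT1 and dehydrogenase GUT2 rose by 2.37 and 2.69, and the external NADH dehydrogenases NDE1 and NDE2 by 1.08 and 9.75. Of 11 genes listed for glycerol and external NADH, 6 were higher and 4 lower, with a median of 1.081.

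Fatty acid breakdown in peroxisomes was higher in 15 of 21 genes and lower in 1 (median 3.531). PXA1, a subunit of the peroxisomal fatty acid transporter, read 9.07, 9.60 and 9.07 against 14.33, 14.45 and 14.14, and its partner PXA2 was also higher by 5.06 ± 0.29. The peroxins, which build the organelle, had smaller differences: 16 of 25 were higher and none lower, with a median of 0.806. PEX11, which divides peroxisomes, read 12.28, 12.48 and 12.87 in batch against 14.17, 14.14 and 14.13 in the chemostat, higher by 1.60 ± 0.13.

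Trehalose and glycogen genes were higher in 18 of 22 and lower in 1, PGM1, the minor phosphoglucomutase. PGM1 fell by 0.56 ± 0.19 (limma adjusted p = 0.0357), a call lost without batch replicate 3 (difference -0.42, adjusted p = 0.107), batch replicate 2, chemostat replicate 1 or chemostat replicate 2 (adjusted p = 0.0507, 0.118 and 0.0962). The list's median was 1.974.

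**Figure D3:**
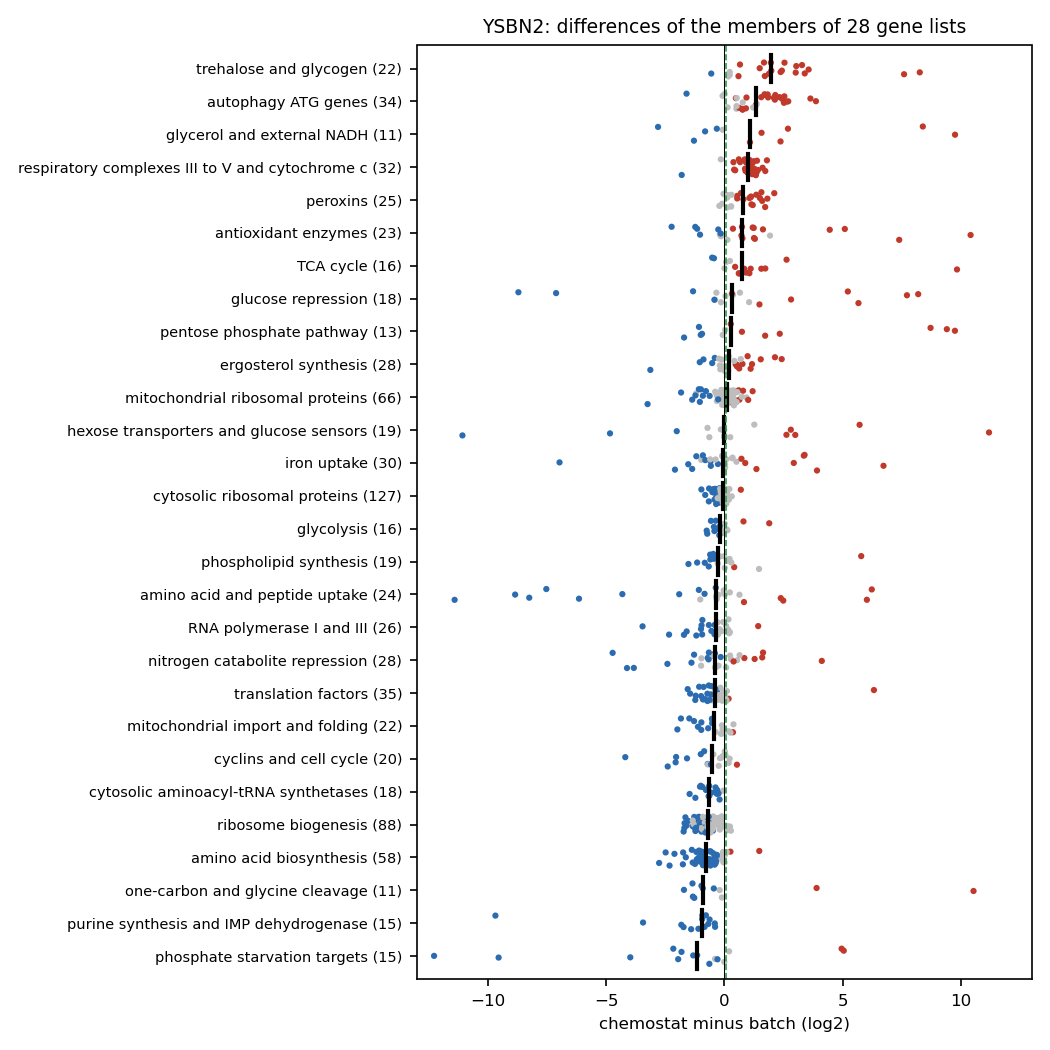
Chemostat minus batch difference (log2, x axis) of every measured member of 28 of the gene lists, sorted by list median. Red points were called higher, blue lower and grey not called; the black bar is the list median and the green dashed line is the median of all probe sets, 0.065. Among the lists drawn, trehalose and glycogen genes (median 1.974) stand at one end and phosphate starvation targets (median -1.152) at the other; lists with higher medians, such as ethanol and acetate use (4.751) and fatty acid breakdown (3.531), are not drawn.

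Genes that yeast induces when phosphate is short were higher in the batch cultures. Of 15 targets of the phosphate pathway, 10 were lower in the chemostat and 2 higher, with a median of -1.152. PHO84, the high-affinity phosphate transporter, read 14.48, 14.92 and 14.46 in batch against 2.43, 2.78 and 1.85 in the chemostat. SPL2, a regulator of low-affinity phosphate uptake, read 12.18, 13.27 and 10.44 against 2.34, 2.57 and 2.35. Both went from a high signal to the floor in every chemostat array.

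Off the floor the phosphate list showed the same direction with smaller sizes. PHM6, a phosphate-regulated gene of unknown function, read 10.34, 11.19 and 10.77 against 6.51, 7.67 and 6.19, and fell by 3.98 ± 0.43. VTC3, a subunit of the vacuolar polyphosphate polymerase, read 13.25, 13.77 and 12.52 against 11.32, 11.48 and 11.29 and fell by 1.81 ± 0.25, and its partners VTC4, VTC1 and VTC2 fell by 1.32, 1.15 and 0.64. PHO11, a secreted acid phosphatase nearly identical to PHO12 and so uncertain as to source, fell by 2.16 ± 0.39.

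Not every phosphate gene followed. PHO5, the best-known secreted acid phosphatase, read 8.93, 9.50 and 9.47 in batch against 8.98, 9.75 and 9.15 in the chemostat, with overlapping groups (limma adjusted p = 0.991), although quantile normalization gave -0.54 (adjusted p = 0.0178). PHM8, a nucleotide phosphatase, read 3.51, 3.53 and 3.34 against 8.09, 8.87 and 8.56, higher by 5.04 ± 0.18 (adjusted p = 2.54e-08). PHO89, the sodium-phosphate symporter, was also higher, at 5.19, 3.94 and 6.97 against 10.28, 10.48 and 10.21 (4.95 ± 0.66). Among 11 regulators and low-affinity carriers, 4 were lower and 1 higher. The pathway's transcription factor PHO4 read 12.21, 12.05 and 12.04 against 10.11, 10.51 and 10.60, and fell by 1.69 ± 0.26 (adjusted p = 0.000464), and the low-affinity carrier PHO90 fell by 1.07 ± 0.21 and its relative PHO91 fell by 1.31 ± 0.13. The cyclin PHO80 and kinase PHO85 that hold Pho4 in check were not called.

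Nitrogen catabolite repression, which keeps genes for poor nitrogen sources off while good ones last, gave a divided list: of 28 targets 11 were lower and 6 higher in the chemostat, with a median of -0.379. DAL5, the allantoate permease, read 14.83, 14.83 and 14.70 in batch against 9.99, 10.18 and 10.03 in the chemostat, and fell by 4.72 ± 0.10 (limma adjusted p = 3.93e-10). DAL80, the GATA-family repressor of these genes, read 13.28, 13.18 and 12.23 against 8.58, 9.22 and 9.40, and PUT1, proline oxidase, read 14.23, 14.29 and 12.99 against 11.36, 11.62 and 11.31. The groups did not overlap for any of these genes. GAP1, the general amino acid permease, fell by only 0.40 ± 0.10.

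The members that were higher included UGA4, the permease for the amino acid GABA, which read 3.22, 3.19 and 6.17 in batch against 7.83, 8.77 and 8.33 in the chemostat, and the ammonium permease MEP1, higher by 1.60. GAT1, a GATA-family activator, read 12.26, 12.11 and 10.66 against 10.70, 10.72 and 10.70. It was not called with batch replicate 3 (-0.97, limma adjusted p = 0.0768) and was lower without it (-1.48, adjusted p = 0.00253). Each of the other scalings also brought GAT1 past the threshold, with adjusted p of 0.0429 for a common median, 0.0342 for quantile normalization and 0.0489 for loess. In ammonium metabolism, GDH2, the NAD-dependent glutamate dehydrogenase that releases ammonium, read 11.87, 11.77 and 11.64 against 14.49, 14.38 and 14.23, higher by 2.61 ± 0.10 (adjusted p = 5.09e-08). GDH3, the NADP-dependent isoenzyme of cells on ethanol, rose by 4.57 ± 0.32, and GDH1, the form used on glucose, differed by -0.01 and was not called.

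Amino acid and peptide permeases were lower in 10 of 24 genes and higher in 5 (median -0.338, and -0.522 without batch replicate 3). OPT2 fell from a clear signal to the floor, and OPT1, TAT2 and MUP1 fell to low signals. OPT2, an oligopeptide transporter, read 13.44, 13.59 and 13.41 against 2.06, 2.12 and 2.06, and OPT1, another, 12.59, 12.78 and 12.24 against 3.25, 6.04 and 3.59. The tryptophan permease TAT2 read 9.12, 9.09 and 10.97 against 3.03, 4.28 and 3.44, and the methionine permease MUP1 read 9.78, 9.64 and 11.07 against 5.58, 6.40 and 5.58. Chemostat replicate 2 was the highest chemostat array for OPT1, TAT2 and MUP1.

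The opposite direction was seen in AGP3, a low-affinity amino acid permease, at 2.26, 2.35 and 2.34 in batch against 8.07, 9.05 and 8.52 in the chemostat (6.23 ± 0.26, limma adjusted p = 8.15e-08). BAP2, a leucine permease, rose from 2.04, 2.04 and 2.96 to 7.77, 8.72 and 8.61. AGP1, a broad-range permease controlled by the Ssy1 sensor, differed by -0.03 and was not called, except with quantile normalization (-0.51, adjusted p = 0.0293).

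Amino acid synthesis was lower in the chemostat across most of its enzymes: 45 of 58 genes were lower and 2 higher, with a median of -0.761. THR1, homoserine kinase of the threonine pathway, read 14.39, 14.28 and 14.02 against 11.19, 11.15 and 12.07, and fell by 2.76 ± 0.37 (limma adjusted p = 0.000205). HIS1, the first enzyme of histidine synthesis, read 15.26, 15.18 and 15.31 against 13.55, 13.42 and 13.55 and fell by 1.74 ± 0.07 (adjusted p = 5.85e-08). ILV6, the regulatory subunit of acetolactate synthase, and SER2, phosphoserine phosphatase, fell by 2.48 ± 0.22 and 2.32 ± 0.17. GCN4, the activator of these enzymes, which is controlled mainly at translation, was 1 of the genes called higher, at 15.55, 15.50 and 15.36 against 15.80, 15.69 and 15.70. Its difference of 0.26 ± 0.07 (adjusted p = 0.0128) was 0.12 with a common array median, no longer past the threshold (adjusted p = 0.343).

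All 15 measured genes of purine synthesis and IMP dehydrogenase were lower, with a median of -0.941. IMD4, an IMP dehydrogenase of guanine nucleotide synthesis, read 13.54, 13.29 and 14.21 in batch against 10.20, 10.37 and 10.16 in the chemostat, and fell by 3.44 ± 0.24. ADE4, the first committed enzyme of the pathway, read 12.51, 12.53 and 13.02 against 10.85, 11.03 and 10.72. One-carbon metabolism, which feeds purines with formyl groups, was lower in 7 of 11 genes and higher in 2 (median -0.913). ADE3, the cytosolic C1-tetrahydrofolate synthase, read 15.14, 15.13 and 15.03 against 13.32, 13.41 and 13.45, and SHM2, the cytosolic serine hydroxymethyltransferase, fell by 1.33 ± 0.07. The pair that rose was FDH1, formate dehydrogenase, from 2.13, 2.13 and 2.12 to 12.53, 12.92 and 12.52, and AGX1, which makes glycine from glyoxylate, from 9.15, 9.17 and 9.14 to 12.86, 12.95 and 13.35.

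Sulfur metabolism had 12 of 25 genes lower and 6 higher (median -0.200). CYS3, which makes cysteine from cystathionine, read 14.28, 14.22 and 14.13 against 10.46, 10.54 and 11.13, and fell by 3.50 ± 0.22. Of the S-adenosylmethionine synthetases, SAM1 read 14.86, 14.89 and 15.28 against 12.33, 12.36 and 12.29 and fell by 2.68 ± 0.12, and SAM2 fell by 0.61 ± 0.08.

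Ribosome biogenesis genes were lower in the chemostat by an amount that depended on batch replicate 3. With all arrays, 38 of 88 genes were lower and none higher, with a median of -0.675. In that array the median list member lay 1.214 above the mean of the other 2 batch arrays. Without it, 36 genes were lower and 8 higher and the median was -0.363, beside 22.6% and 31.9% of all probe sets. The count lower was 62 without batch replicate 2 and 25 without chemostat replicate 3. UTP5, NOP1 and CBF5 were called lower both ways. UTP5, of the small-subunit processome, read 12.29, 11.92 and 13.86 against 10.94, 11.01 and 10.95 (-1.72 ± 0.40, limma adjusted p = 0.00497, and -1.14 without the array, adjusted p = 4.23e-05). NOP1, the methylase that modifies ribosomal RNA, read 13.93, 14.02 and 14.67 against 12.76, 12.77 and 12.51, and CBF5, the pseudouridine synthase, 13.62, 13.56 and 13.90 against 12.43, 12.60 and 12.36. They fell by 1.53 ± 0.18 and 1.23 ± 0.10. The kinase RIO2, needed late in small-subunit maturation, read 10.37, 10.39 and 12.08 against 11.14, 11.25 and 10.95, not called with the array (0.17, adjusted p = 0.751) and higher without it (0.74, adjusted p = 0.00054). RLP24, a large-subunit assembly factor, changed from -0.19 (adjusted p = 0.735) to 0.43 (adjusted p = 0.00265).

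Mitochondrial ribosomal proteins also depended on that array, in the count higher. Of 66 genes, 8 were higher and 12 lower with the array (median 0.116), and 26 were higher and 11 lower without it (median 0.223). The count higher was 4 without batch replicate 2 or chemostat replicate 2. A common array median alone turned the first of these medians to -0.016. MRPL25, a large-subunit protein, read 10.00, 10.16 and 11.27 against 11.35, 11.57 and 11.53, higher by 1.01 ± 0.29, or by 1.40 without the array. Its call was lost without batch replicate 1 or batch replicate 2 (limma adjusted p = 0.0554 and 0.0559).

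**Figure D4:**
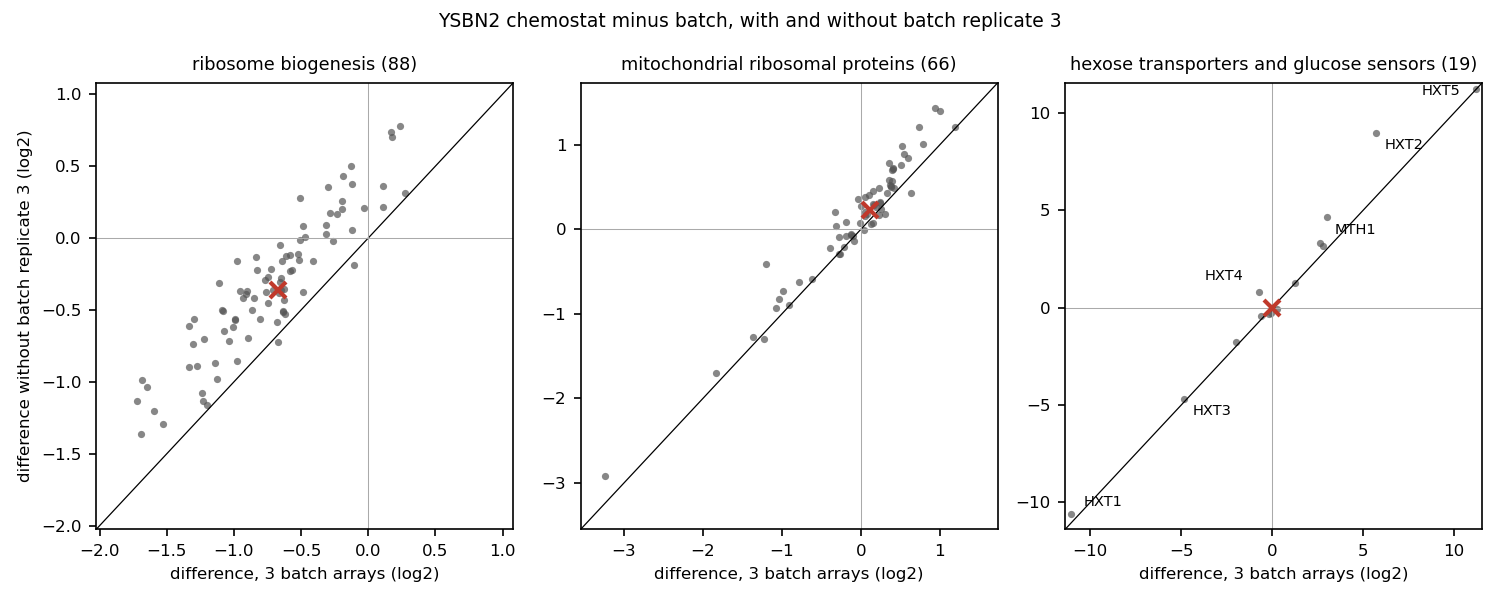
Chemostat minus batch difference (log2) with all 3 batch arrays (x axis) and without batch replicate 3 (y axis) for 88 ribosome biogenesis genes, 66 mitochondrial ribosomal proteins and 19 hexose transporters and sensors. The red cross is the list median and the diagonal marks equal values. Most ribosome biogenesis genes lie above the diagonal (medians -0.675 and -0.363), and HXT2, MTH1 and HXT4 are the transporters and sensors farthest from it.

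RNA polymerases I and III had 13 of 26 genes lower and 1 higher, with a median of -0.351, and 5 were higher without batch replicate 3. RPA14, a polymerase I subunit, read 11.73, 11.45 and 12.22 against 7.82, 8.76 and 8.44, and fell by 3.46 ± 0.25 (limma adjusted p = 3.16e-06). The gene that was higher was MAF1, the repressor of polymerase III, at 10.86, 11.04 and 10.61 in batch against 12.25, 12.36 and 12.19 in the chemostat (1.43 ± 0.12, adjusted p = 1.03e-05). Cytosolic ribosomal proteins differed little: 30 of 127 were lower and 1 higher, with a median of -0.072 that loess moved to 0.002. Among these RPS11A fell by 0.97 ± 0.13 and RPS22B rose by 0.69 ± 0.12. Both belong to near-identical gene pairs that the array may not fully separate.

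Cytosolic aminoacyl-tRNA synthetases, which charge tRNAs, were lower in 17 of 18 genes and higher in none (median -0.637). The phenylalanine enzyme subunit FRS2 fell by 1.47 ± 0.11 and the lysine enzyme KRS1 by 1.23, while the serine enzyme SES1 differed by -0.05 (limma adjusted p = 0.684). Translation factors were lower in 19 of 35 genes and higher in 2 (median -0.381), with 4 higher without batch replicate 3 and 1 higher without any single other YSBN2 array except batch replicate 2. The elongation factor 3 genes moved apart: HEF3, which is little used on glucose, read 5.21, 5.33 and 6.42 against 11.81, 12.38 and 11.73, and YEF3, the main form, fell by 0.34 ± 0.05.

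Of 20 cyclins and cell cycle regulators, 9 were lower and 1 higher (median -0.517), and 8 and 3 without batch replicate 3. The median was -0.213 with values under 6 raised to 6. CLN3, the cyclin that starts the cycle in response to growth, read 11.07, 10.97 and 11.41 in batch against 8.93, 9.12 and 9.20 in the chemostat, and fell by 2.06 ± 0.14 (limma adjusted p = 2.64e-06). CLN2, a G1 cyclin downstream of it, read 9.77, 9.81 and 10.25 against 4.82, 6.77 and 5.68, whereas CLN1 differed by 0.05 and was not called. Histone genes showed no common direction, with 4 of 9 higher and 2 lower.

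Autophagy genes were higher in 24 of 34 and lower in 1, with a median of 1.347 (0.882 with quantile normalization). ATG8, the ubiquitin-like protein of the autophagosome membrane, read 11.46, 11.60 and 10.97 against 13.08, 13.38 and 13.05 (1.83 ± 0.17), and the kinase ATG1 read 9.14, 9.29 and 8.65 against 10.96, 11.62 and 10.97 (2.15 ± 0.21). ATG39, a receptor for autophagy of the nuclear envelope, read 9.18, 9.30 and 9.73 against 13.29, 13.38 and 13.16, higher by 3.87 ± 0.16 (limma adjusted p = 7.17e-08). ATG18, a phosphoinositide-binding factor, was the gene that fell, by 1.60 ± 0.44. The vacuolar aminopeptidase APE1, an autophagy cargo, went the other way from most, at 13.97, 13.82 and 13.69 in batch against 11.26, 11.57 and 11.38 in the chemostat. Of 34 proteasome genes 10 were higher (29.4%, beside 30.6% of all probe sets) and 11 lower (32.4%, beside 21.9%). Their median was -0.024, and 0.054 without batch replicate 3. The count higher was 4 or 5 without batch replicate 1, batch replicate 2 or chemostat replicate 2. RPN4, the activator of proteasome genes, rose by 1.00 ± 0.11.

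Antioxidant enzymes were higher in 13 of 23 genes and lower in 6 (median 0.743), again with opposite directions inside families. GPX1, a peroxisomal glutathione peroxidase, read 5.998, 5.94 and 7.13 in batch against 13.62, 13.80 and 13.81 in the chemostat, and GPX2, another glutathione peroxidase, fell from 12.78, 12.72 and 12.52 to 10.35, 10.56 and 10.41. The cytosolic catalase CTT1 rose by 5.09 and the mitochondrial peroxiredoxin PRX1 by 1.63. AHP1, a thioredoxin peroxidase, read 15.63, 15.64 and 15.65 against 14.34, 14.41 and 14.48, and fell by 1.23 ± 0.09, and the thioredoxin reductase TRR1 fell by 1.15. Chaperone and stress genes were higher in 13 of 30 and lower in 6 (median 0.214), with the small heat shock protein HSP26 higher by 3.07 and the cytosolic Hsp70 gene SSA2 lower, at 15.78, 15.70 and 15.64 against 13.72, 13.98 and 13.95.

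Lipid genes were mixed. In ergosterol synthesis 11 of 28 genes were higher and 5 lower (median 0.174). The sterol-responsive activators UPC2 and ECM22 rose by 2.42 ± 0.16 and 2.14, UPC2 from 8.53, 8.23 and 8.15 to 10.62, 10.66 and 10.90. Phospholipid synthesis had 9 of 19 genes lower and 2 higher (median -0.279, and -0.164 without chemostat replicate 1), and the extreme member was higher: INO1, inositol 3-phosphate synthase, read 7.21, 7.47 and 8.998 against 13.77, 13.74 and 13.51 (5.78 ± 0.51, limma adjusted p = 1.33e-05). OLE1, the fatty acid desaturase, read 13.45, 13.43 and 14.59 against 14.64, 14.69 and 14.67, with a difference of 0.84 ± 0.26 (adjusted p = 0.0223) that was 1.23 without batch replicate 3. Without any other single YSBN2 array OLE1 missed the threshold, with adjusted p from 0.0506 to 0.0785.

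Iron genes had no common direction. The siderophore transporter SIT1 read 8.22, 6.81 and 8.80 against 11.26, 11.68 and 10.97 (3.36 ± 0.45), and the ferric reductase FRE4 rose from 2.02, 2.02 and 3.65 to 8.97, 9.64 and 9.24. The reductive uptake pair fell: FET3, the multicopper ferroxidase, read 13.83, 13.73 and 13.51 against 12.16, 12.21 and 12.12, and FTR1, its permease, read 12.68, 12.68 and 12.84 against 11.36, 11.40 and 11.36. FET4, the low-affinity iron transporter, read 12.71, 12.54 and 13.14 against 4.93, 7.68 and 4.88. Over 30 iron genes 8 were higher (26.7%, beside 30.6% of all probe sets) and 10 lower (33.3%, beside 21.9%). Their median was -0.043, and 0.017 without batch replicate 3. Of 15 zinc and copper genes 4 were higher and 7 lower (median -0.325, and -0.199 without batch replicate 3), among them the high-affinity zinc transporter ZRT1, which fell by 0.98 ± 0.27, or by 0.62 without batch replicate 3.

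Genes of amino acid catabolism to fusel alcohols and esters were lower in 7 of 14 and higher in 4 (median -0.319). The median was -0.070 without batch replicate 3, -0.125 without chemostat replicate 1, -0.562 without batch replicate 2, -0.527 without chemostat replicate 2 and -0.931 with quantile normalization. ARO9, the aromatic aminotransferase of catabolism, read 4.68, 7.10 and 3.63 in batch against 11.81, 11.98 and 12.06 in the chemostat, and ARO8, its biosynthetic counterpart, fell by 1.75. EEB1, which makes ethyl esters, read 14.57, 14.67 and 15.05 against 10.59, 11.00 and 10.90 (-3.93 ± 0.17), and PDR12, the exporter of weak organic acids, read 13.69, 13.75 and 13.49 against 9.71, 10.13 and 9.56 (-3.84 ± 0.14).

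Haploid yeast cells express the pheromone and receptor genes of their own mating type, and meiotic genes are off in growing cells. Mating-type genes of both kinds were among those higher in the chemostat. Of 8 a-specific genes 6 were higher and none lower, and of 4 alpha-specific genes 2 were higher and none lower. Their medians were 2.637 and 1.995, and 1.357 and 1.271 with quantile normalization. In batch replicate 3 the median members lay 0.943 and 1.757 above the mean of the other 2 batch arrays. Of 12 genes listed as haploid-specific, 6 were higher and none lower, with a median of 0.606. That median was 0.236 with quantile normalization and 0.172 with values under 6 raised to 6. MFA1, an a-factor gene, read 8.81, 8.003 and 8.29 against 11.37, 11.22 and 10.74 (2.74 ± 0.23). MF(ALPHA)1, an alpha-factor gene, read 3.54, 3.82 and 7.06 against 8.37, 9.30 and 9.01 (4.09 ± 0.83), and STE3, the a-factor receptor of alpha cells, read 5.09, 5.09 and 6.57 against 9.05, 9.89 and 9.39. Probe sets of both mating types thus read above 8 in the same chemostat arrays, and the labels give no mating type to set beside this. Meiosis and sporulation genes were higher in 10 of 32, close to the 30.6% of all probe sets, and lower in 2. Their median of 0.356 was near 0 with quantile normalization (-0.024), with loess (0.006) and with values under 6 raised to 6 (0.000), and ran from 0.079 without chemostat replicate 2 to 0.635 without chemostat replicate 1. RIM4, an RNA-binding protein of early meiosis, rose by 5.58 and the meiotic activator NDT80 by 4.12, whereas IME1, the master inducer of meiosis, differed by 0.41 (limma adjusted p = 0.492).

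Of the 15 probe sets with the largest rises, 12 had a batch mean under 4, and of the 15 with the largest falls 10 had a chemostat mean under 4. In all, 130 called rises started and 31 called falls ended in that range, so their sizes are set by the floor. Among the probe sets whose means were at least 8 in both groups, the largest rise was TMA10, a small protein that binds ribosomes, at 8.54, 9.24 and 8.19 in batch against 15.79, 15.57 and 15.67 in the chemostat (7.02 ± 0.28, limma adjusted p = 5.17e-08). Next to MPC3 and the peroxisomal genes, that ranking held YRO2, a plasma membrane protein, with a rise of 5.04 ± 0.41, and BNS1, related to a mitotic exit factor, at 8.83, 8.81 and 8.18 against 13.14, 13.26 and 12.97. The largest fall of this kind was MAE1, the mitochondrial malic enzyme, from 13.73, 13.40 and 13.46 to 7.20, 8.42 and 8.71 (-5.42 ± 0.38, adjusted p = 2.64e-06). It was followed by HXT3, DAL5 and ARI1, an aldehyde reductase, and then by AAH1, adenine deaminase, at 11.98, 11.85 and 13.88 against 7.50, 8.24 and 8.36. UTR2, a cell wall enzyme that links chitin to glucan, read 14.05, 13.89 and 14.69 against 10.40, 10.49 and 10.42 (-3.77 ± 0.18).

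A few genes were read in batch replicate 3 as in no other batch array. PRM7, a pheromone-regulated membrane protein, read 2.03, 2.03 and 12.25 in batch and 2.02 in every chemostat array. Another, brighter PRM7 probe set read 4.38, 4.34 and 13.37 against 3.15, 4.33 and 3.64. It was not called, except with quantile normalization (-4.73, limma adjusted p = 0.0448). RGS2, a regulator of glucose-sensing G protein signalling, read 2.75, 2.75 and 10.98 against 2.74, 2.76 and 2.47. ECM13, of unknown function, read 3.05, 3.02 and 13.42 against 11.95, 11.97 and 12.23, so its difference of 5.55 ± 2.31 (limma adjusted p = 0.0694) was 9.01 without the array (adjusted p = 2.48e-06). Below the others in that array were MET32, an activator of methionine genes, at 11.39, 11.15 and 8.55 against 11.29, 11.62 and 11.49, and MUP3, a methionine permease, at 12.25, 12.23 and 9.52 against 10.97, 11.27 and 11.02. MUP3 was not called with the array (-0.25, adjusted p = 0.774) and was lower without it (-1.15, adjusted p = 0.00107).

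Whether these differences belonged to YSBN2 was asked by subtracting the CEN.PK difference in the same fit. The strains' differences were unequal at 882 probe sets (15.4%), with the YSBN2 difference above that of CEN.PK at 248 (4.34%) and below at 634 (11.1%). Without YSBN2 batch replicate 3 these counts were 586 (10.3%) above and 896 (15.7%) below, so both depended on that array. The count above was also 152 without YSBN2 chemostat replicate 2 and 159 without YSBN2 batch replicate 2.

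The phosphate targets differed between strains in 10 of 15 genes, all with YSBN2 below. PHO84 fell by 12.27 ± 0.35 in YSBN2 and went from 2.39 to 6.28 in CEN.PK, a gap of -16.155 (limma adjusted p = 8.09e-08), with the CEN.PK batch arrays near the floor. SPL2 read 2.33 and 2.43 in CEN.PK, at the floor in both cultures, so no fall could be read in that strain. The nitrogen list had 12 of 28 genes below and 2 above, with DAL5 at 9.06 in batch and 10.03 in the chemostat of CEN.PK, where it was not lower. DAL80 read 3.42 and 3.79 in CEN.PK, near the floor in both cultures, so no fall could be read there. PDR12, which fell by 3.84 in YSBN2, differed by 0.89 in CEN.PK.

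In other lists the gap lay in genes that rose. Trehalose and glycogen genes had 13 of 22 below, among them GPH1, glycogen phosphorylase, which rose by 3.28 in YSBN2, from a batch mean of 11.27, and in CEN.PK went from 2.95, at the floor, to 13.64. Off the floor, HXK1 and GLK1 differed by 7.14 and 3.80 in CEN.PK, gaps of -5.25 and -2.997, and ATG39 went from 2.599, at the floor, to 13.16 there, a gap of -6.69. The reverse was seen in cytosolic ribosomal proteins, where 26 of 127 had YSBN2 above and none below (10 to 26 when 1 YSBN2 array was left out), with medians of -0.072 in YSBN2 and -0.300 in CEN.PK. Of 8 a-specific genes 5 had the YSBN2 difference above, and 3 did so without batch replicate 1 or chemostat replicate 2. AGA2, the a-agglutinin subunit, had a gap of 5.42, but its level was lower in YSBN2. Its YSBN2 means were 3.92 in batch, near the floor, and 9.63 in the chemostat, beside 11.925 and 12.21 in CEN.PK. For MPC3 the differences were 5.95 in YSBN2 and 5.92 in CEN.PK, a gap of 0.03 ± 0.92 (limma adjusted p = 0.991). Without YSBN2 batch replicate 3 the MPC3 gap was 0.996 and passed the threshold (adjusted p = 0.021).

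**Figure D5:**
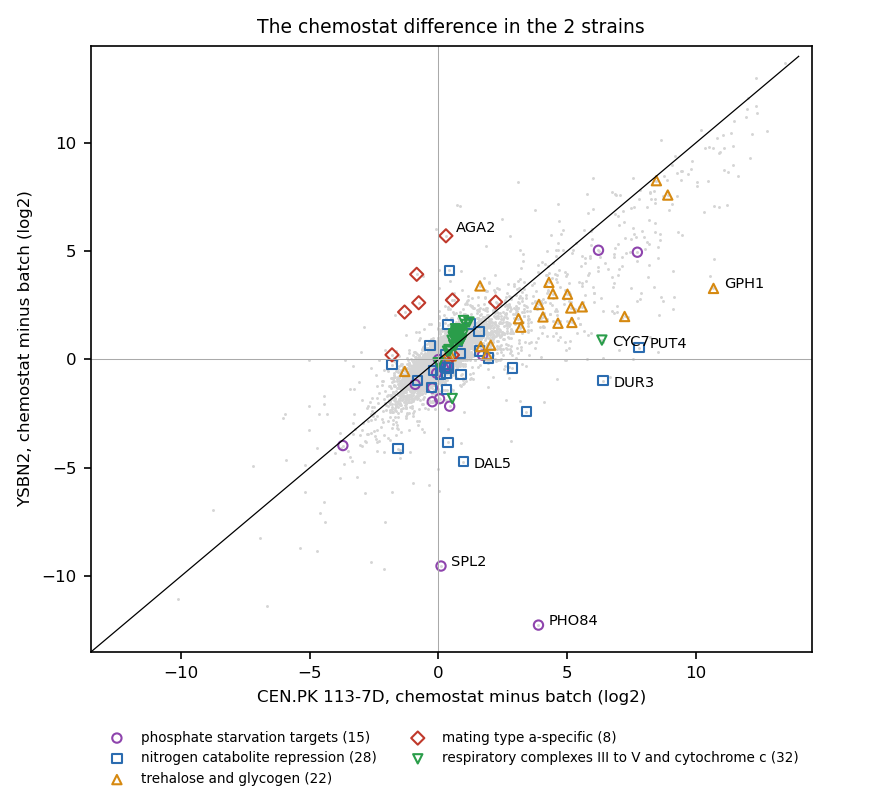
Chemostat minus batch difference (log2) in CEN.PK 113-7D (x axis) and in YSBN2 (y axis), 1 point per probe set, with 5 gene lists marked in colour and the diagonal at equal differences. PHO84, SPL2 and DAL5 lie far below the diagonal, below 0 in YSBN2 and not below 0 in CEN.PK, where SPL2 was at the floor in both cultures. GPH1 and PUT4 lie below it and AGA2 above it.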

How the data were processed

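RNA of 12 yeast cultures was hybridised to 1-colour Affymetrix arrays. R 2.6, affy and RMA are named in the submitters' processing notes, without order or settings. No label states a log base, and the deposited table was taken to hold log2 signals because its values span the range that RMA gives on that scale. No detection calls or scanner values were used. Probe sets were named from the platform annotation, with 12 symbols updated, and each gene was represented in lists by its probe set with the highest mean.

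A linear model with 1 mean per strain and culture was fitted to all 12 arrays with limma 3.58.1 in R 4.3.3 (eBayes, 8 residual degrees of freedom). The p-values are two-sided, with Benjamini-Hochberg adjustment across 5716 probe sets. The difference between strains was an interaction contrast of the same fit. Gene lists were described by counts and medians, with no set test. In data simulated for the YSBN2 comparison over 5716 probe sets, 28%, 54%, 90% and 96% of probe sets changed by 0.5, 1, 2 and 3 log2 units were recovered, and 3.6% of calls were false. The simulation changed 50 probe sets at each size, all with means above 6, under independent normal noise and with no deviating array. In the data 52.6% of probe sets were called, so these rates describe the simulated setting only.

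The members and the 52 lists were chosen with earlier results of these data known. Named genes were the 15 largest non-overlapping calls each way, the 10 largest each way with both means at 8 or more, members of lists of up to 30 genes, the 5 largest calls each way of longer lists, the 10 genes each way in which batch replicate 3 lay farthest from the other batch arrays, and the 10 largest strain differences each way. Any measured member of a list of up to 30 genes could be named, so the rule does not fix which of those members appear. HIS1, ATG1, ATG8, NOP1, CBF5, RIO2, RLP24, YEF3 and IME1 fall outside this rule and were chosen after their values were seen. Probe sets of near-identical genes may read more than 1 gene. Promoter motifs were not analysed here. Alternatives were other scalings, filters, thresholds, fits of the 6 YSBN2 arrays alone, a replicate block, array weights, and leaving out each YSBN2 array.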

Additional observations from a re-analysis of the deposited data

Results flagged for a closer look

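The difference between chemostat and batch was unequal in the strains by the limma interaction test for the genes that follow, so each was singled out by a difference between groups. A gap is the YSBN2 difference minus the CEN.PK difference on the log2 scale, over 3 arrays per strain and culture. Where a mean of either strain lies near the floor, the size of the gap is set by it. Over all probe sets the gap was above 0 at 248 and below 0 at 634.

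The most negative gaps held genes that fell in YSBN2 and genes that rose in CEN.PK. PHO84 had a gap of -16.155 and SPL2 one of -9.640, both phosphate targets, and IMD2, an IMP dehydrogenase, one of -7.549, with differences of -9.68 in YSBN2 and -2.13 in CEN.PK. PAU3, a seripauperin of the cell surface, had -8.193 and ANS1, a putative GPI protein, -7.556, with CEN.PK rises of 8.55 and 7.56 beside YSBN2 differences of 0.36 and -0.00. YJR115W had a gap of -7.470 and GPH1 one of -7.409. The urea permease DUR3 (-7.376) and the proline permease PUT4 (-7.251) rose by 6.39 and 7.79 in CEN.PK and were not called in YSBN2. The DUR3 groups of YSBN2 did not overlap, with a difference of -0.98. DUR3 passed the threshold in the 6 YSBN2 arrays alone (limma adjusted p = 0.0433) and with values under 6 raised to 6 (adjusted p = 0.00955). Loess and quantile normalization gave it YSBN2 differences of -1.69 and -1.77 that also passed. Malate synthase MLS1 (-7.205) rose by 8.23 in CEN.PK. In YSBN2 it differed by 1.02, not called in the fit of all arrays but called in the 6 YSBN2 arrays alone (limma adjusted p = 0.0353).

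The most positive gaps included genes of a-type cells and of the pheromone response: AGA2 with 5.422, the a-factor gene MFA2 with 4.779, the fusion protein FUS1 with 4.449 and SST2, which damps pheromone signalling, with 4.354. All of these had lower means in YSBN2 than in CEN.PK in both cultures. MFA2 means were 6.77 in batch and 10.70 in the chemostat of YSBN2, beside 15.045 and 14.20 in CEN.PK. The YSBN2 call of SST2 (1.48, adjusted p = 0.0339) was lost without chemostat replicate 2 or 3, with adjusted p of 0.106 and 0.0736, and with loess (adjusted p = 0.11) or quantile normalization (adjusted p = 0.372), and its size was 0.77 without batch replicate 3. The others were YER053C-A at 6.406, the maltose activator MAL33 at 6.230, YIL046W-A at 6.100, COS12 at 5.043, the putative permease SEO1 at 4.141 and YLL066W-B at 4.036. COS12 differed by -0.00 in YSBN2 and fell by 5.05 in CEN.PK.

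Among the largest YSBN2 rises, ADY2 had a gap of 0.657, SFC1 -0.640, HXT5 -0.753, FDH1 -2.230 and ISF1 -0.602. TMA10 had a gap of -3.882, from a CEN.PK batch mean of 4.697. GDH3 had one of -3.166 against a CEN.PK batch mean of 2.493, so its size is set by the floor. Among the largest falls, OPT2 had -4.730, DIP5 -4.133, GNP1 -5.434, TAT2 -4.324, MIG3 -2.501 and YJL213W -3.330. Falls with means of at least 8 in both cultures of both strains gave -2.260 for MAE1, -5.689 for DAL5, -3.040 for AAH1, -0.874 for EEB1, -4.729 for PDR12 and -0.934 for UTR2. DAL80 had -4.196 with CEN.PK means of 3.420 and 3.789, near the floor in both cultures. No cause of these gaps was tested.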

How the results depend on the processing

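Of 1750 probe sets higher and 1254 lower, 1160 and 767 were left with a replicate block in the 6 YSBN2 arrays, and 786 and 450 when tested against a 1.5-fold change. Leaving out 1 YSBN2 array gave 1412 to 1823 higher and 1029 to 1293 lower. Same-numbered batch and chemostat arrays had deviations correlated at 0.087, -0.169 and 0.045, so the numbers were not taken as pairs; a replicate block over all arrays gave 1811 and 1317. The strain counts moved most. The 248 with YSBN2 above became 76 at an adjusted p under 0.01, 741 with array weights, 409 with a common array median, 537 with quantile normalization, 28 against a 1.5-fold change, and 152 to 586 with 1 array left out. The 634 below became 331, 1233 and 212 at the stricter threshold, with array weights and against 1.5-fold, and 474 to 896 with 1 array left out. Of 170 named genes that were called, 133 kept call and direction under every one of the 20 settings that tested them. With 1 array left out, HXT4 ranged from -1.61 to 0.80 and RLP24 from -0.50 to 0.43, both above 0 without batch replicate 3, and RLP24 also at 0.43 in the 6 YSBN2 arrays alone without it. Leaving out the dimmest 25% of probe sets left 1292 higher and 1110 lower of 4287. Values near the floor and the number of arrays limit what can be read.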

Other observations

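Genes for other sugars and for vitamin synthesis were also higher in the YSBN2 chemostats. Of 16 measured genes for sucrose, maltose and galactose use, 11 were higher and none lower, with a median difference of 2.271 (1.274 with quantile normalization), and without batch replicate 3 the counts were 11 and 1. Of 20 thiamine and pyridoxine genes, 12 were higher and 2 lower, with a median of 0.860 (0.320 with quantile normalization). AAC1, a minor ADP/ATP carrier of mitochondria, read 11.36, 10.95 and 10.55 in batch against 14.07, 13.93 and 13.79 in the chemostat, whereas AAC3, the carrier of low oxygen, fell by 2.06 ± 0.56 and the main carrier PET9 differed by 0.05 and was not called by limma.

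Chemostat replicate 2 deviated by 2 log2 units or more from the average of its 2 companions at 45 probe sets, all of them above. Its 10th percentile, 7.34, was the highest of the 6 YSBN2 arrays. Without this array 1412 probe sets were called higher, beside 1750 with it. OPT1 and FET4 are examples among the genes that fell, at 6.04 and 7.68 in that array.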
